A study of Saccharomyces cerevisiae with 12 samples.

Results

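The genes described here are the 9 cyclins of the yeast kinase Cdc28, namely the G1 cyclins *CLN1*, *CLN2* and *CLN3* and the B-type cyclins *CLB1* to *CLB6*. The members were chosen by name, as the probe sets that the platform annotation gives to these genes, and each of the 9 had 1 probe set, among 5449 genes tested. Affymetrix Yeast Genome 2.0 arrays (12 in all, 3 per group) gave the level of their transcripts. The 4 groups were the haploid *MAT***a** strain BY4741 (WT, *his3*Δ1 *leu2*Δ0 *met15*Δ0 *ura3*Δ0) and *sus1*Δ, the same background with *SUS1* replaced by the *KanMX4* marker, each kept untreated or given 30 μg/mL of Congo red (CR). CR damages the wall by binding to its chitin, and Sus1 is a subunit of the SAGA deubiquitinating module and of TREX-2. All 4 groups thus share the auxotrophic markers of BY4741, and a strain with *SUS1* put back is not among the samples. The sample titles give 3 h of treatment and the deposited design gives 2 h. No label or method gives a synchronization of the cultures, so a value is an average over all cells of a culture. A different share of cells in a phase and a different amount of transcript per cell cannot be told apart in such samples.

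Progress through the yeast cell cycle depends on one kinase, Cdc28, which is active only with a cyclin bound to it. Cln3 acts first in G1 and relieves the repressor Whi5, after which the factor SBF (Swi4 and Swi6) switches on *CLN1* and *CLN2*, the cyclins that drive budding. Clb5 and Clb6 start DNA replication, Clb3 and Clb4 help to build the spindle, and Clb1 and Clb2 drive mitosis. Because most of these transcripts come and go with a phase of the cycle, a level in a growing culture depends on how many of its cells are in that phase. The cell wall integrity (CWI) pathway, whose kinase Slt2 also acts on Swi4 and Swi6, links this cycle to damage of the wall.

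*SUS1* read 7.90 to 8.66 on the WT arrays without CR, 8.32 to 8.53 with CR, and 2.55 to 3.34 on the 6 *sus1*Δ arrays (log2 signal), as the labels have it. The 6 **a** cell markers read 9.01 (*AGA2*) to 13.10 (*MFA1*). Of the 4 alpha cell markers, *MF(ALPHA)1* read 3.03 to 4.61, *MF(ALPHA)2* 4.89 to 5.76, *STE3* 5.17 to 6.98 and *SAG1* 8.13 to 8.57. The CWI kinase gene *SLT2* rose after CR by 1.89 in WT cells and, on the same log2 scale, by 1.41 without Sus1. The cyclin signals ran from 8.46 to 10.54, all above the 25th percentile of their array (8.01 to 8.16). The dimmest signals were higher without Sus1, with a 5th percentile on the *sus1*Δ arrays of 5.36 to 5.49 against 4.53 to 4.80 on the WT arrays. WT arrays also varied more, with a median SD per gene of 0.148 in both WT groups and of 0.0712 and 0.0784 in untreated and CR-treated *sus1*Δ cells, while the model uses 1 variance per gene.

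Between the untreated strains 3 of the 9 cyclins differed. *CLN3* and *CLB2* were higher and *CLN2* was lower in *sus1*Δ than in WT cells, by ratios of 1.81, 1.51 and 0.736. The other 6 cyclins did not pass the test. Of all genes, 21.4% passed it in this comparison (adjusted p under 0.05 from limma, n = 3 arrays per group), a share that 2 of 9 cyclins would match. By direction, 2 cyclins were higher beside 14.3% of all genes and 1 was lower beside 7.08%. At the ratio limits that the methods of the study use, at least 2 or at most 0.5, 0 of the 9 cyclins were called by limma, against 2.53% of all genes, and 0 of 9 passed these limits in the other comparisons (2.57% of all genes between the CR-treated strains, 1.69% for CR in WT cells, 0.496% for CR in *sus1*Δ cells and 0.0551% for the difference between the CR responses). The median log2 difference of the 9 cyclins was 0.08, beside 0.03 over all genes tested.

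**Figure D1:**
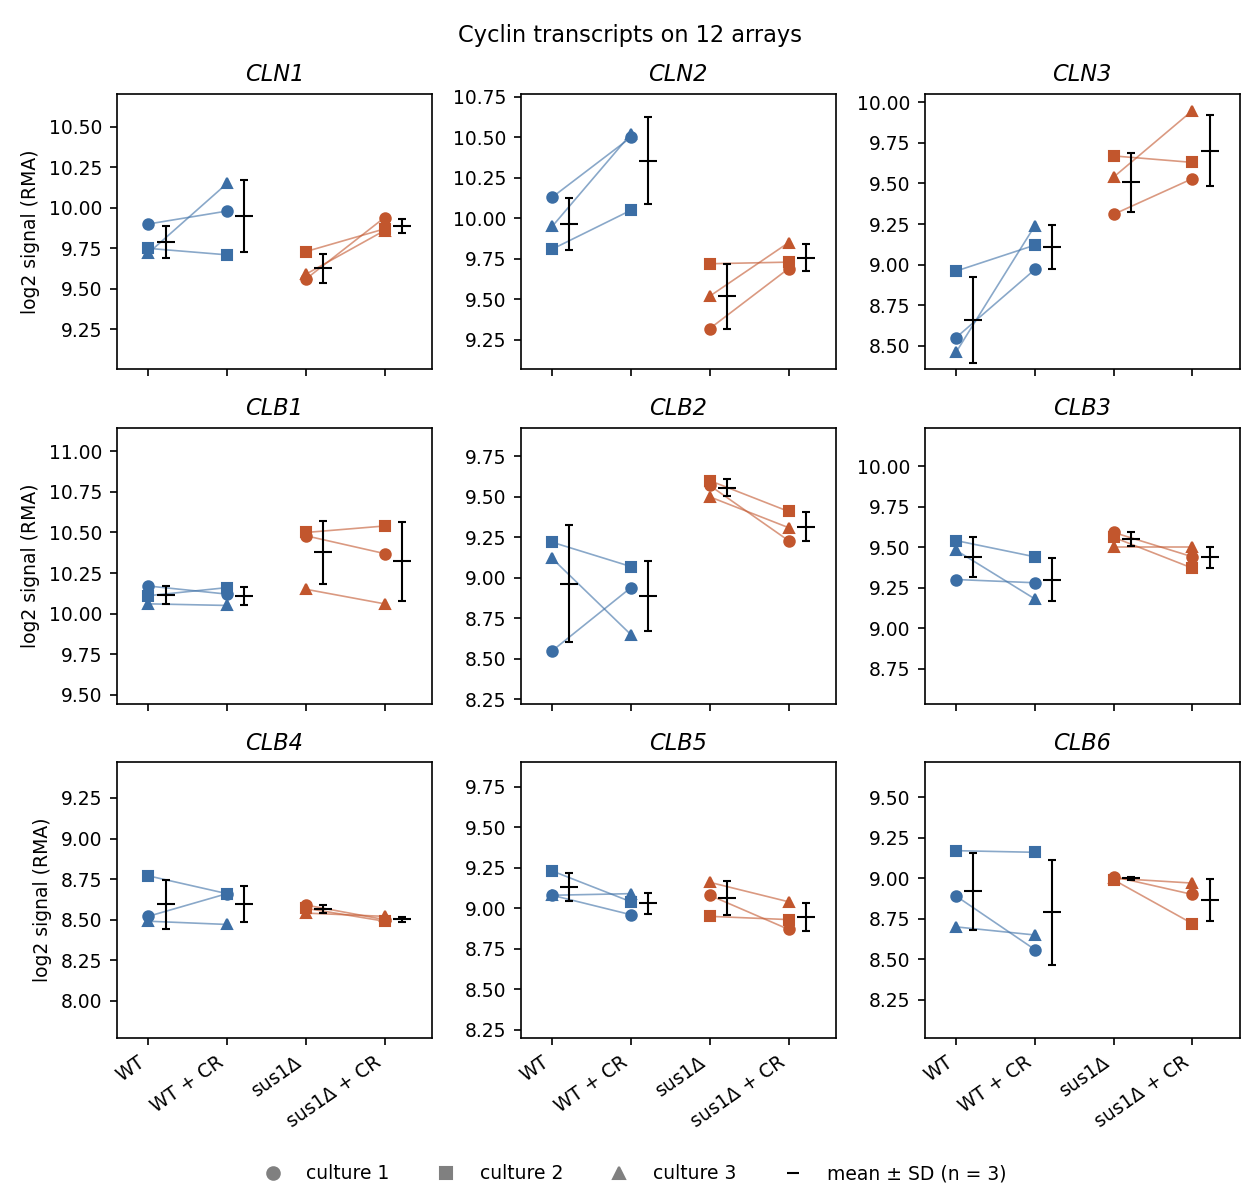
Log2 signal of the 9 cyclins on all 12 arrays, with WT in blue and *sus1*Δ in red, lines between the untreated and CR-treated arrays of a culture, and the mean ± SD of 3 arrays beside each group. Each panel spans the same height in log2 units but has its own origin. The *CLN3* points of *sus1*Δ cells lie above and their *CLN2* points below those of WT cells in the same condition.

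*CLN3* (YAL040C, chromosome I), which encodes the most upstream G1 cyclin, differed most in untreated cells. It read 8.55, 8.96 and 8.46 on the untreated WT arrays and 9.31, 9.67 and 9.54 on the untreated *sus1*Δ arrays. After CR it read 8.97, 9.12 and 9.24 in WT and 9.53, 9.63 and 9.95 in *sus1*Δ cells. All 6 *sus1*Δ arrays thus read above all 6 WT arrays. The log2 difference was 0.85 (standard error 0.15, 95% confidence interval 0.52 to 1.18, adjusted p = 0.00319 from limma) without CR and 0.59 (standard error 0.15, adjusted p = 0.0141 from limma) with it. The untreated difference passed the test with any 1 array left out, at 0.76 to 1.00. The treated one had an adjusted p of 0.059 from limma without CR-treated *sus1*Δ replicate 3, the array with the highest *CLN3* signal, and of 0.0537 without both arrays of WT culture 1.

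*CLN2* (YPL256C, chromosome XVI), which encodes a G1 cyclin of budding and of the start of the cycle, went the other way. Its signals were 10.13, 9.81 and 9.95 in untreated WT and 9.32, 9.72 and 9.52 in untreated *sus1*Δ cells. The groups did not overlap, although the highest *sus1*Δ array was close to the lowest WT array. After CR they were 10.50, 10.05 and 10.52 in WT and 9.69, 9.73 and 9.85 in *sus1*Δ cells, which were again lower on every array. The log2 difference was -0.44 without CR (standard error 0.14, 95% confidence interval -0.75 to -0.13, adjusted p = 0.0453 from limma). It was -0.60 with CR (standard error 0.14, adjusted p = 0.00943 from limma), which passed with any 1 array left out. The untreated difference lay close to the threshold. Its adjusted p from limma ran from 0.0183 to 0.164 as each array was left out, and it missed the threshold without WT replicate 1 or 3, *sus1*Δ replicate 1 or 3, or any 1 of the 3 CR-treated *sus1*Δ arrays. Without both arrays of WT culture 1 it was 0.143, and without both arrays of WT culture 3 it was 0.0528 (both from limma). After quantile normalization over the tested genes it was 0.0586, and with only the groups compared in the fit 0.0569 (both from limma). The untreated difference was called in 12 of 19 alternatives that kept the arrays or left out a WT culture.

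*CLN1* (YMR199W, chromosome XIII), the close relative of *CLN2* with the same function, did not pass the test. It read 9.90, 9.75 and 9.72 in untreated WT and 9.56, 9.73 and 9.59 in untreated *sus1*Δ cells, groups that overlap. Its log2 difference was -0.16 (95% confidence interval -0.40 to 0.07, adjusted p = 0.293 from limma) without CR and -0.06 (95% confidence interval -0.29 to 0.18) with CR.

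*CLB2* (YPR119W, chromosome XVI), which encodes the main mitotic cyclin, read 8.55, 9.22 and 9.12 in untreated WT cells and 9.57, 9.60 and 9.50 in untreated *sus1*Δ cells. All *sus1*Δ arrays were higher than all WT arrays, and the WT arrays spread over a far wider range. After CR the signals were 8.94, 9.07 and 8.65 in WT and 9.23, 9.41 and 9.31 in *sus1*Δ cells. Between the strains *CLB2* differed by 0.59 on the log2 scale (standard error 0.16, 95% confidence interval 0.25 to 0.94, adjusted p = 0.0224 from limma) in untreated cells. In CR-treated cells it was 0.43 (95% confidence interval 0.08 to 0.77, adjusted p = 0.0649 from limma), and this call depended on the fit. The adjusted p was under the threshold in 4 other limma fits (0.0421 with replicate number as a block, 0.0438 with only the groups compared, 0.0473 with trend and robust variances and 0.0364 with array weights), without both arrays of WT culture 1 or 2 (0.0237 and 0.0358) and without WT replicate 1 (0.0126), and it was 0.0855 with the culture as a random block. Without WT replicate 1, which read 8.55, the untreated difference fell to 0.39 and missed the threshold, as it did without any 1 of the 3 untreated *sus1*Δ arrays (adjusted p from limma up to 0.0772).

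*CLB1* (YGR108W, chromosome VII), the partner of *CLB2* in mitosis, read 10.06 to 10.17 in untreated WT and 10.15 to 10.50 in untreated *sus1*Δ cells. Replicate 3 gave the lowest *sus1*Δ signal in both conditions and lay within the WT range. The log2 difference of 0.26 did not pass the test (95% confidence interval -0.01 to 0.53, adjusted p = 0.154 from limma). The spindle cyclins *CLB3* (YDL155W, chromosome IV) and *CLB4* (YLR210W, chromosome XII) had log2 differences of 0.11 and -0.03, with 95% confidence intervals of -0.08 to 0.30 and -0.22 to 0.16. The S phase cyclins *CLB5* (YPR120C, the neighbor of *CLB2*) and *CLB6* (YGR109C, the neighbor of *CLB1*) had -0.06 and 0.08. Their intervals were -0.24 to 0.11 and -0.26 to 0.42, which bound but do not exclude small differences. *CLB2* and *CLB5* thus lie side by side, as do *CLB1* and *CLB6*, and in neither pair did both members pass.

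In CR-treated cells, 2 of the 9 cyclins differed between the strains, *CLN2* and *CLN3*, beside 27.7% of all genes (1 higher beside 16.8% and 1 lower beside 10.9%), and the median log2 difference of the 9 was 0.07. The groups did not overlap for *CLN2*, *CLN3* and *CLB2*, the same 3 cyclins as in untreated cells. Over all genes this held for 45.3% with CR and for 41.7% without it. No further cyclin separated the strains, and the log2 differences of the other 6 lay between -0.10 (*CLB4*) and 0.21 (*CLB1*).

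**Figure D2:**
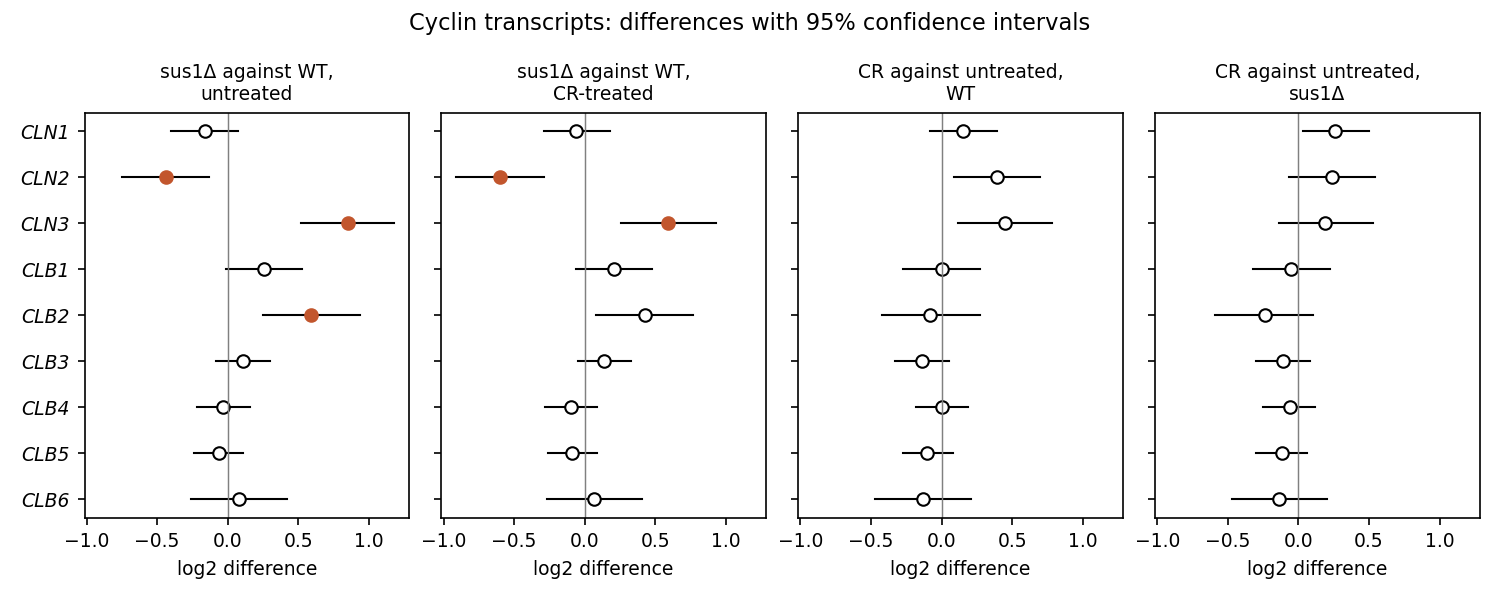
Log2 differences of the 9 cyclins in 4 comparisons, with points for the limma estimate and lines for its 95% confidence interval. Filled red points have an adjusted p under 0.05 over all genes, and these are *CLN2*, *CLN3* and *CLB2* in untreated and *CLN2* and *CLN3* in CR-treated cells. Open points did not pass in this fit, in which the culture was not a block.

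Whether a cyclin passed the test for a change after CR depended on the pairing of the arrays. In the fit without a block, no cyclin passed in either strain. With the culture as a block, which compares the treated and untreated arrays of each culture, *CLN2* and *CLN3* passed in WT cells. Both were higher (adjusted p = 0.013 and 0.0236 from limma), and no cyclin passed in *sus1*Δ cells. The main fit called 0 of 9 cyclins in WT cells, beside 18.4% of all genes (9.4% higher and 9.01% lower). In *sus1*Δ cells it called 0 of 9, beside 1.54% of all genes (1.39% higher and 0.147% lower). At an unadjusted p under 0.05 limma without a block gave 2 cyclins in WT cells, *CLN2* and *CLN3*, both higher. Of all 5449 genes, 797 were higher and 901 lower by that rule. In *sus1*Δ cells it gave 1 (*CLN1*, higher), beside 288 genes higher and 269 lower. The methods' t-test at that threshold gave 0 in WT cells and 3 in *sus1*Δ cells (*CLN1*, *CLB2* and *CLB4*), the latter beside 1073 of all 5449 genes. The cyclins had a median log2 change of 0.00 in WT cells, beside -0.02 over all genes, and of -0.06 without Sus1, beside -0.03.

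The G1 cyclins had the larger CR values in WT cells. *CLN3* changed by 0.45 on the log2 scale (standard error 0.15, 95% confidence interval 0.12 to 0.78, adjusted p = 0.0589 from limma), with 0.42, 0.16 and 0.78 in cultures 1, 2 and 3. *CLN2* changed by 0.39 (standard error 0.14, 95% confidence interval 0.09 to 0.70, adjusted p = 0.0749 from limma), with 0.37, 0.24 and 0.57 in the same cultures. Both read higher after CR in all 3 WT cultures, and culture 2 had the smallest change of both. With the culture as a block, which compares the 2 arrays of each culture with each other, *CLN3* and *CLN2* passed the test (adjusted p = 0.0236 and 0.013 from limma). That fit called 2 of 9 cyclins and 29.9% of all genes in WT cells, and 0 of 9 and 3.58% in *sus1*Δ cells. Without the untreated array of WT replicate 2 the adjusted p of *CLN3* was 0.0151, and without the CR-treated array of WT replicate 2 that of *CLN2* was 0.0134 (both from limma). *CLN1*, which did not pass (adjusted p = 0.356 from limma), had changes of 0.08, -0.05 and 0.43 in the 3 cultures.

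In *sus1*Δ cells the 3 G1 cyclins had log2 changes of 0.26 (*CLN1*), 0.24 (*CLN2*) and 0.19 (*CLN3*), none of which passed. *CLN1* read 9.56 to 9.73 without and 9.86 to 9.94 with CR, groups that do not overlap, and its adjusted p was 0.416 from limma. All 6 B-type cyclins had values below 0, from -0.24 for *CLB2* to -0.05 for *CLB1*. *CLB2* read lower after CR in all 3 *sus1*Δ cultures, by -0.34, -0.19 and -0.19. In WT cells its changes were 0.39, -0.15 and -0.47, which differ in sign, and culture 1 holds the low untreated array. The treated and untreated groups did not overlap for 4 of 9 cyclins in *sus1*Δ cells (*CLN1*, *CLB2*, *CLB4* and *CLB6*) and for 1 of 9 in WT cells (*CLN3*), beside 28.1% and 27.5% of all genes. *CLB6* read lower after CR in every culture of both strains, by at most -0.33, and its change passed in neither (95% confidence intervals -0.47 to 0.21 in WT and -0.47 to 0.20 in *sus1*Δ cells).

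The CR responses of the 2 strains were then compared. The difference between the responses passed for 0 of 9 cyclins, beside 0.0734% of all genes and 0.826% with the culture as a block (again 0 of 9 cyclins), and no cyclin had an unadjusted p under 0.05 from limma. For *CLN3* it was -0.26 (95% confidence interval -0.73 to 0.21), for *CLN2* -0.16 (95% confidence interval -0.60 to 0.28) and for *CLB2* -0.17 (95% confidence interval -0.66 to 0.32). These intervals hold 0 and also differences as large as the CR changes themselves. Ordered by mean, *CLN3* was lowest in untreated WT, then CR-treated WT, then untreated *sus1*Δ and highest in CR-treated *sus1*Δ cells (8.66 ± 0.263, 9.11 ± 0.133, 9.51 ± 0.183 and 9.70 ± 0.22, SD, n = 3). Neighbors in this order within a strain did not pass the test in the main fit. The WT step passed once culture was a block and in some fits without a block. The step from CR-treated WT to untreated *sus1*Δ cells was not tested. For *CLN2* the order was untreated *sus1*Δ, CR-treated *sus1*Δ, untreated WT and CR-treated WT (9.52 ± 0.198, 9.76 ± 0.0858, 9.96 ± 0.161 and 10.36 ± 0.267, SD, n = 3). For *CLB2* it was CR-treated WT, untreated WT, CR-treated *sus1*Δ and untreated *sus1*Δ (8.89 ± 0.216, 8.97 ± 0.359, 9.31 ± 0.0928 and 9.56 ± 0.0539). In both orders neighbors within a strain did not pass in the main fit, and the middle step was not tested. The WT step of *CLN2* passed once culture was a block.

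Genes that act with the cyclins were described by lists of the cell cycle. Among 14 regulators of transcription at the start of the cycle, 1 was higher and 3 were lower in untreated *sus1*Δ cells, with a median of -0.14, beside 14.3% of all genes higher and 7.08% lower. *WHI5*, which encodes the repressor that Cln3 relieves, read 4.62 to 5.53 in untreated WT and 6.95 to 7.22 in untreated *sus1*Δ cells (log2 difference 1.93, standard error 0.21, adjusted p = 0.000182 from limma). Its difference after CR was 1.86 (adjusted p = 0.000171 from limma). The *WHI5* probe set lay below the 25th percentile of every array, and the 5th percentile itself was higher on *sus1*Δ arrays (5.36 to 5.49 against 4.53 to 4.80). After quantile normalization over the tested genes the *WHI5* difference was 1.37 without CR and 1.29 with it (adjusted p = 0.00221 and 0.00184 from limma). *SRL3*, also called *WHI7*, encodes a relative of Whi5 and was lower in *sus1*Δ cells. Its differences were -0.49 without and -0.60 with CR (adjusted p = 0.00503 and 0.0013 from limma). *NRM1* (-0.37) and *MSA2* (-0.22) were the other lower regulators in untreated *sus1*Δ cells (adjusted p = 0.00606 and 0.049 from limma). *MSA2* kept this call with only 3 of the 12 arrays left out in turn. After CR *SRL3* rose by 2.71 in WT cells, where 4 of the 14 were higher beside 9.4% of all genes, and by 2.60 in *sus1*Δ cells. *BCK2*, an activator of G1 transcripts that works beside Cln3, rose by 0.49 in WT cells. *SWI4*, *SWI6* and *MBP1*, the subunits of SBF and MBF, had log2 differences of -0.25, -0.14 and -0.26 between the untreated strains and did not pass.

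Of 35 measured targets of these factors, 6 were higher and 5 lower in untreated *sus1*Δ cells, with a median of -0.03, beside 14.3% of all genes higher and 7.08% lower. Between the CR-treated strains 10 were higher and 7 lower in *sus1*Δ cells (median 0.08), beside 16.8% of all genes higher and 10.9% lower. *PCL2*, a cyclin of the kinase Pho85 that is expressed in G1, was lower by -0.58 (standard error 0.13, adjusted p = 0.0115 from limma) without and by -0.62 with CR. *AXL2*, a bud site gene, was lower by -0.54, whereas *BUD9*, another bud site gene, was higher by 0.75. With *sus1*Δ replicate 1 left out the higher genes numbered 2, and with *sus1*Δ replicate 2 left out the lower genes numbered 3.

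Of 21 measured genes of the *CLB2* cluster, which are transcribed with *CLB2* in G2 and mitosis, 3 were higher and 0 lower in untreated *sus1*Δ cells by limma, with a median of 0.06 (4 and 0 at an unadjusted p under 0.05). The share of higher genes was that of all genes, 14.3%. Without WT replicate 1 there was 1. *SWI5*, which encodes the factor that opens the next G1, read 8.96 to 9.32 in WT and 9.65 to 9.76 in *sus1*Δ cells, a log2 difference of 0.55 (standard error 0.10, adjusted p = 0.00342 from limma), and 0.68 with CR. The polo kinase gene *CDC5* differed by 0.32 (adjusted p = 0.0341 from limma, up to 0.11 with 1 array left out, and over the threshold without WT replicate 1 or 2 or any 1 untreated *sus1*Δ array). *FKH1*, *FKH2*, *NDD1* and *MCM1*, which encode the activators of this cluster, did not pass, with log2 differences of -0.40, 0.20, -0.08 and -0.24. The lower value of *FKH1* lay close to the threshold (adjusted p = 0.0534 from limma). It passed with the replicate number as a block and with the culture as a random block (adjusted p = 0.0211 and 0.041 from limma).

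Of 23 measured genes of the M/G1 boundary, which are transcribed as cells leave mitosis, 8 were higher and 0 lower in untreated *sus1*Δ cells by limma (11 and 0 at an unadjusted p under 0.05), beside 14.3% of all genes higher. After CR 10 were higher and 0 lower (13 and 1 at an unadjusted p under 0.05), beside 16.8% of all genes higher. The medians were 0.28 and 0.24, against 0.03 over all genes in both comparisons. The largest called differences in untreated cells were those of *PST1* (0.59) and *AMN1* (0.57, adjusted p = 0.00475 and 0.0129 from limma). *PST1* also rose by 1.78 after CR in WT cells. *ASH1*, the repressor of *HO* in daughter cells, was higher by 0.56, *SCW11*, a glucanase gene of cell separation, by 0.52 and *DSE3*, a daughter cell gene, by 0.38 (adjusted p = 0.000591, 0.0082 and 0.00857 from limma). The 8 fell to 4 without *sus1*Δ replicate 2 and the 10 fell to 5 without CR-treated *sus1*Δ replicate 2. *SIC1* and *FAR1*, which encode inhibitors of Cdc28 and belong to this list, had differences of 0.12 and 0.21 and did not pass.

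**Figure D3:**
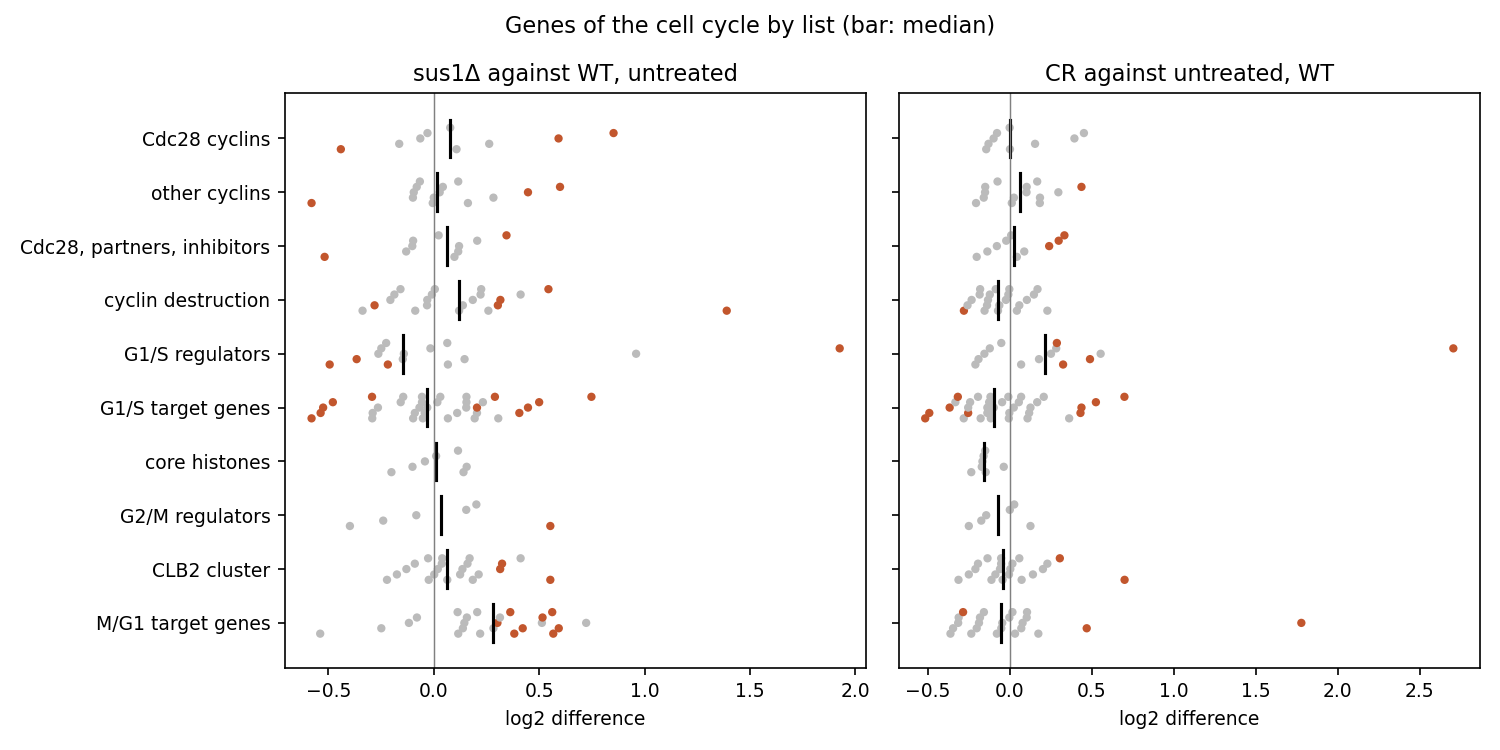
Log2 differences of the genes of each cell cycle list, between the untreated strains (left) and between CR-treated and untreated WT cells (right). Each point is a gene, red where its adjusted p over all genes is under 0.05, and the bar is the median of the list, which lies at 0.28 for the M/G1 genes on the left.

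Of 10 genes of the kinase, its partners and its inhibitors, 3 were higher and 0 lower after CR in WT cells (the same counts at an unadjusted p under 0.05), beside 9.4% of all genes higher. These were *CDC28*, *CKS1* and *CAK1*, whose product activates Cdc28, and without WT replicate 3 there was 1. *CAK1* kept its call with only 2 of the 12 arrays left out in turn. *CDC28*, the kinase gene, read 9.80 to 9.85 in untreated and 10.01 to 10.27 in CR-treated WT cells, or 0.33 more on the log2 scale (adjusted p = 0.0132 from limma, standard error 0.08). *CKS1*, which encodes a small subunit of the kinase, changed by 0.30 (adjusted p = 0.0194 from limma, and 0.0641 at the highest with WT replicate 3 or CR-treated WT replicate 1 left out). In *sus1*Δ cells their changes of 0.08 and 0.07 did not pass, and the difference between the responses did not pass either (-0.26 and -0.23, adjusted p = 0.553 and 0.62 from limma). *CDC28* did not pass between the untreated strains (-0.13), and it was lower in CR-treated *sus1*Δ than in CR-treated WT cells by -0.39 (adjusted p = 0.00469 from limma). Between the untreated strains 1 of the 10 was higher and 1 lower in *sus1*Δ cells, beside 14.3% and 7.08% of all genes. With CR 1 was higher and 3 lower, beside 16.8% and 10.9%. *CDC37*, which encodes a chaperone of kinases, was lower in *sus1*Δ cells in both conditions, by -0.52 and -0.63. *HSL7* was the higher gene in both, by 0.34 and 0.32 (adjusted p = 0.0369 and 0.0412 from limma). Each of its calls held with only 4 of the 12 arrays left out in turn. *SWE1*, which encodes the inhibitory kinase of Cdc28 and Clb2, did not pass in any comparison.

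The genes whose signal followed a cyclin most closely over the 12 arrays were found by Pearson correlation, as a description. The arrays share strains and cultures and are not 12 independent samples. For *CLN3* these genes were *KNS1*, which encodes a protein kinase (r = 0.948), *INP53* (0.934) and *SOL1* (0.932). For *CLN2* they were *ROY1* (0.952), the lipase gene *TGL4* (0.948) and the casein kinase gene *HRR25* (0.946). For *CLB2* they were *YKR104W* (0.975), *IZH3* (0.971) and *TFC6* (0.966). For the other 6 cyclins the closest gene had an r of 0.877 (*CLB6*) to 0.939 (*CLB3*). Signals of *CLN3*, *CLN2* and *CLB2* also varied most among the cyclins, with an SD over the 12 arrays of 0.455, 0.359 and 0.337, whereas the other 6 had 0.0908 (*CLB4*) to 0.196 (*CLB6*) and the median gene had 0.188.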

How the data were processed

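The authors deposited log2 signals for 5739 probe sets, obtained by RMA in the Expression Console (background correction, quantile normalization and probe summary). Its version, and which arrays were normalized jointly, were not stated in the sources used here. The dimmest signals and the spread of the arrays differed by strain, and whether arrays of both strains were processed alike was not tested. By the platform annotation, 5498 probe sets had 1 gene and 241 none. Where a gene had several probe sets (47 genes) only the brightest was kept, and 5449 genes were tested. Symbols, locus names and neighbors follow RefSeq's R64 annotation. The files name no genome build, so no coordinates are given.

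In R 4.3.3, limma 3.58.1 fitted the 4 group means to all 12 arrays and gave 5 comparisons (two-sided, Benjamini-Hochberg adjustment over the 5449 genes, call at an adjusted p under 0.05). Scripts were tested on simulated data. The number of arrays limits the precision. The methods describe that cultures were split before treatment, so arrays of a strain with the same replicate number were taken as 1 culture. Their deviations from the group means correlated at 0.247 to 0.716 (6 pairs), and those of other numbers of the strain at -0.595 to -0.00134. Deviations cancel out within a group, so positive same-number values force negative other-number values on average. The second range is thus no separate evidence of the pairing. Arrays of the other strain with the same number correlated at -0.0305 to 0.193 (12 pairs).

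The members and the gene lists were chosen with earlier results of these data known. Named genes are the 9 cyclins, regulators listed by name, up to 3 called genes of largest change per list and comparison, and the 3 genes most alike to each cyclin. Alternatives changed the test, the fold, the probe sets, a filter on dim genes, the scaling, the groups in the fit, the block, the variance model and the threshold, and left out each array or WT culture.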

Additional observations from a re-analysis of the deposited data

How the results depend on the processing

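Calls of *CLN3* between the untreated strains and of *CLN2* between the CR-treated strains passed with any 1 array left out, and each passed in 17 of 19 alternatives that kept the arrays or left out a WT culture. With 1 array left out, the number of cyclins called ran from 1 to 3 in both strain comparisons and from 0 to 1 for CR in WT cells, and it was 0 to 0 for CR in *sus1*Δ cells and for the difference between the CR responses. Between the untreated strains 1 cyclin (*CLN3*) was called with only the groups compared in the fit, beside 899 of all 5449 genes. The same held at an adjusted p under 0.01 (475 genes). It also held without both arrays of WT culture 1 (821 genes), a choice made after seeing the data. Between the CR-treated strains 1 (*CLN2*) was called at an adjusted p under 0.01, beside 740 genes. The methods' t-test after Benjamini-Hochberg adjustment, and the ratio limits, left 0 in both strain comparisons. The t-test called 249 genes between the untreated and 604 between the CR-treated strains, and the ratio limits 138 and 140. For CR in WT cells 1 (*CLN3*) was called without genes under the 25th percentile (906 genes called) or under the median (670 genes), of fewer genes tested. The same cyclin was called with trend and robust variances (1080 genes) and with the replicate number as a block (1224 genes). There 2 (*CLN2* and *CLN3*) were called with the culture as a fixed block (1631 genes) or a random block (1704 genes). Both were also called without both arrays of WT culture 2 (900 genes, also chosen after seeing the data). For CR in *sus1*Δ cells 1 (*CLN1*) was called with array weights (545 genes) and 3 by the methods' t-test without adjustment (1073 genes). The pairing changed no other count of cyclins by over 1.5 times. The cause of these changes was not tested.

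Sign changes were limited to values that were called in neither setting. For CR in WT cells, *CLB1* was 0.011 after median centring, 0.001 after quantile normalization and with array weights, 0.002 without WT culture 3 and 0.025 without WT culture 1. *CLB4* was -0.000 as a ratio of arithmetic means, -0.019 with array weights and -0.067 without WT culture 1, and *CLB2* was 0.119 without WT culture 3. For the difference between the responses, array weights gave 0.017 for *CLB5* and 0.166 for *CLB6*. Leaving out WT culture 3 gave -0.049 for *CLB3*, 0.036 for *CLB5* and 0.034 for *CLB6*, WT culture 1 gave 0.065 for *CLB2* and 0.003 for *CLB4*, and WT culture 2 gave 0.054 for *CLB6*. Between the untreated strains *CLB6* was -0.005 with array weights and -0.033 without WT culture 3, and *CLB4* was 0.057 without WT culture 2. Between the CR-treated strains *CLN1* was 0.046 without WT culture 3 and *CLB6* was -0.044 without WT culture 1. With 1 array left out, *CLB1* ran from -0.028 to 0.030, *CLB2* from -0.282 to 0.051 and *CLB4* from -0.048 to 0.089 for CR in WT cells, and *CLB1* from -0.166 to 0.079 for CR in *sus1*Δ cells. The difference between the responses ran from -0.166 to 0.079 for *CLB1*, -0.295 to 0.039 for *CLB2*, -0.029 to 0.102 for *CLB3*, -0.078 to 0.026 for *CLB5*, -0.131 to 0.178 for *CLB6* and -0.011 to 0.210 for *CLN1*. Between the untreated strains *CLB4* ran from -0.080 to 0.057 and *CLB6* from -0.033 to 0.202, and between the CR-treated strains *CLB6* ran from -0.044 to 0.256 and *CLN1* from -0.175 to 0.046. Promoter motifs and their alternative window were not run.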

Other observations

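Genes for the destruction of cyclins, subunits of the anaphase-promoting complex (APC) and of the SCF ubiquitin ligase, were also measured. Of 21 such genes, 4 were higher and 1 lower in untreated *sus1*Δ than in WT cells by limma (median 0.12), beside 14.3% of all genes higher and 7.08% lower. After CR 4 were higher and 0 lower (median 0.10, with 5 and 1 at an unadjusted p under 0.05), beside 16.8% of all genes higher. Without WT replicate 1 the 4 in untreated cells were 2 and the 1 lower gene was 0. *CDC23*, an APC subunit gene, read 7.54 to 7.80 in untreated WT and 8.15 to 8.26 in untreated *sus1*Δ cells, a log2 difference of 0.54 (standard error 0.12, adjusted p = 0.00967 from limma), and it differed by 0.62 after CR. *DOC1*, which encodes an APC subunit for substrate binding, differed by 1.39 and 0.99. It was dim, at 4.24 to 4.58 in untreated WT and 5.41 to 6.20 in untreated *sus1*Δ cells, in the range where the 5th percentile of the arrays was also higher without Sus1. After quantile normalization over the tested genes its differences were 0.60 and 0.26 and neither was called (adjusted p = 0.101 and 0.455 from limma).

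Of 14 cyclins of other kinases, 2 were higher and 1 lower in untreated *sus1*Δ cells (median 0.01), the shares of all genes being 14.3% and 7.08%. *PCL5*, a Pho85 cyclin gene that acts on the factor Gcn4, was higher by 0.60 (standard error 0.13, adjusted p = 0.00809 from limma), while *PCL2* was the one that was lower. *PCL1*, the close relative of *PCL2*, differed by 0.45 in the other direction (adjusted p = 0.0347 from limma), which rose to 0.124 at the highest with 1 array left out, and it lost the call without WT replicate 2 or 3 or any untreated *sus1*Δ array. Of 7 measured core histone genes, transcribed in S phase, 0 were called between the untreated strains by limma (1 at an unadjusted p under 0.05), beside 21.4% of all genes. Between the CR-treated strains 2, *HTA1* and *HTA2*, were higher in *sus1*Δ cells, by 0.21 and 0.26, beside 16.8% of all genes higher. Neither was called without CR-treated *sus1*Δ replicate 2, and *HTA1* kept its call with only 3 of the 12 arrays left out in turn (adjusted p up to 0.16 from limma).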
